A study of Mus musculus with 7 samples.

Results

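The miRNAs mmu-miR-146a-5p, mmu-miR-146b-5p, mmu-miR-155-5p, mmu-miR-132-3p and mmu-miR-212-3p, which inflammatory signalling is known to induce, were followed in the vesicles that visceral fat releases, in mice on a high-fat diet with and without nicotine. They were chosen by name from a table of 820 miRNAs, all 5 were in it, and the species prefix is left out where no level is given. Extracellular vesicles are membrane particles shed by cells, here isolated from epididymal white adipose tissue, and their small RNAs were sequenced. The HFD+Ni group (n = 3) comprised male ApoE-/- mice given a high-fat diet together with nicotine at 2 mg/kg/day. The HFD group (n = 4) comprised male ApoE-/- mice given the high-fat diet alone, and in both groups the diet lasted 12 weeks in mice described as 8 weeks old. ApoE clears lipoproteins from blood, and mice without it are prone to atherosclerosis. All mice of both groups lacked it and ate the high-fat diet, so no lean or wild-type level was analysed here. The labels do not say whether a library came from 1 animal, so the p-values measure only the spread between these samples, which may be partly technical.

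NF-kB is a transcription factor that switches on inflammatory genes after signals from Toll-like and cytokine receptors. It also raises miR-146a, which targets the adaptors Irak1 and Traf6 of the same receptors and so closes a negative feedback loop. miR-146b has the same seed, the stretch of a miRNA that pairs with its targets. miR-155 is made from the non-coding transcript Mir155hg in activated macrophages and lymphocytes and targets the signalling brakes Socs1 and Inpp5d (SHIP1). miR-132 and miR-212 come from 1 primary transcript that the factor CREB induces, and miR-132 is known to target the coactivator Ep300 and the acetylcholine-degrading enzyme Ache.

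The mature sequences, from RefSeq on GRCm38.p6, are shown to make the seed families visible. Capitals mark the seed, bases 2 to 8 from the 5′ end.
miR-146a-5p: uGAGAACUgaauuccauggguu
miR-146b-5p: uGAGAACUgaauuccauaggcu
miR-155-5p: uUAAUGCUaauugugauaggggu
miR-132-3p: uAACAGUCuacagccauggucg
miR-212-3p: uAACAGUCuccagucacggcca
The 5 sequences carry 3 seeds. A sequence to compare was at hand for 696 of the 820 miRNAs, and among these no miRNA outside the set carried any of the 3 seeds.

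miR-146a-5p and miR-146b-5p are equal at 20 of 22 positions and differ by G18A and U21C, with positions counted from 1 at the 5′ end of miR-146a-5p and its base given first. Both differences lie near the 3′ end, so a read trimmed before them fits either miRNA. How such reads were assigned is not given in the sources used here, and the division between these relatives is uncertain to that extent. miR-132-3p and miR-212-3p are equal at 17 of 22 positions and differ by A10C, C14U, U17C, U20C and G22A, with the base of miR-132-3p first.

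On GRCm38 the miR-146a hairpin (Mir146, minus strand) lies at chr11:43374397-43374461, where the annotation holds no other gene. Mir146b lies on the plus strand at chr19:46342762-46342870, in an intron of the protein-coding gene Mfsd13a. Mir155 lies on the plus strand at chr16:84714140-84714204, within an exon of Mir155hg. Mir212 (chr11:75173388-75173478) and Mir132 (chr11:75173682-75173747) follow each other on the plus strand with 203 bases between their hairpins, both in an intron of the non-coding gene 1700016P03Rik.

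Levels are given in rpm, reads scaled to a library total of 1000000 miRNA reads. The counts summed to 53626 to 175892 miRNA reads per library in HFD+Ni and 77021 to 1055902 in HFD. So 1 read was worth up to 18.6 rpm (HFD+Ni replicate 1) and as little as 0.947 rpm (HFD replicate 2). Some near-identical miRNAs had equal means, such as miR-199a-5p and miR-199b-5p, both at 1070 rpm in HFD+Ni and 953 rpm in HFD. A read that fits both may therefore be counted for both, and the totals and shares of reads given here may hold such reads more than once. Markers of other cells and tissues were present and uneven, in part between the groups. The 2 endothelial miRNAs, miR-126a-3p and miR-126a-5p, summed to 12979 to 18852 rpm in HFD+Ni and 20518 to 32381 rpm in HFD. These sums did not overlap, but the groups did overlap for each of the 2 alone. Of single miRNAs, 9 of 387 tested (2.33%) lay lower in HFD+Ni without overlap. The 6 miRNAs looked up for adipose tissue, all detected in both groups, summed to 20606 to 41652 rpm in HFD+Ni and 27432 to 68389 rpm in HFD. The largest part in every library was miR-143-3p, at 11825 to 30001 rpm in HFD+Ni and 14848 to 51105 rpm in HFD. The sum therefore mostly follows that 1 miRNA and is not a measure of adipose content. The 6 leukocyte miRNAs summed to 2350 to 4679 rpm in HFD+Ni and 4616 to 5865 rpm in HFD, with miR-223-5p at 0 in HFD+Ni. The 4 striated muscle miRNAs summed to 762 to 1156 rpm in HFD+Ni, where miR-206-3p was at 0, and to 866 to 4300 rpm in HFD. The 6 epithelial miRNAs reached 45146 rpm in HFD+Ni replicate 1, against 6311 and 6820 rpm in the other HFD+Ni libraries and 4813 to 13605 rpm in HFD. The 7 testis miRNAs summed to 448, 0 and 604 rpm in HFD+Ni replicates 1 to 3, against 0 to 20.8 rpm in HFD, where miR-881-3p and miR-465a-5p were at 0. The 4 neural miRNAs summed to 195 to 5426 rpm in HFD+Ni, highest in replicate 1, and to 312 to 2574 rpm in HFD. The highest sums were mostly miR-9-5p. In HFD+Ni replicate 3 miR-9-5p was at 46.5 rpm beside 149 rpm of miR-128-3p, and in HFD replicate 4 both were at 143 rpm. miR-124-3p and miR-137-3p were at 0 in HFD+Ni. In bulk vesicles, fewer vesicles of a cell type and fewer copies per vesicle cannot be told apart.

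The set was a small part of the vesicle cargo, and miR-146a-5p made up most of it. Together the 5 miRNAs took 0.213%, 0.168% and 0.229% of miRNA reads in HFD+Ni replicates 1 to 3, against 0.212%, 0.281%, 0.307% and 0.491% in HFD replicates 1 to 4. miR-146a-5p alone gave 68.4% to 70.7% of these reads in HFD+Ni and 72.7% to 79.8% in HFD. The order of the mean levels was the same in both groups, with miR-146a-5p above miR-146b-5p, miR-155-5p, miR-132-3p and miR-212-3p. Within each of the 7 libraries miR-146a-5p also lay above miR-146b-5p, and miR-146b-5p above miR-155-5p, with Poisson intervals that did not overlap. miR-155-5p lay above miR-132-3p in all 7, but in 5 of them the intervals overlapped. miR-132-3p and miR-212-3p were both at 0 in 3 of the 7 libraries.

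**Figure D1:**
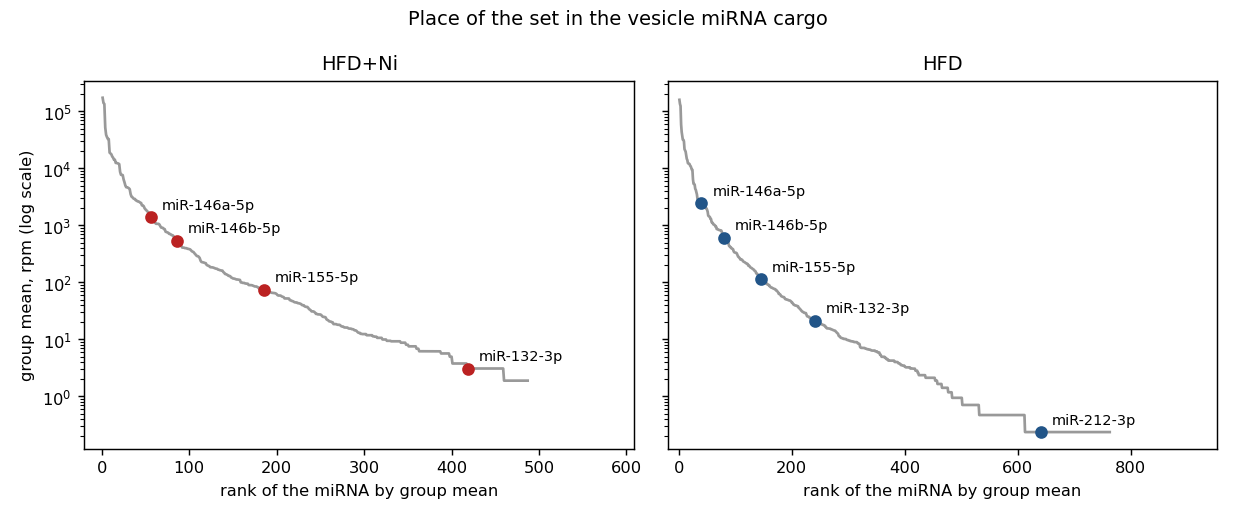
Group mean level (rpm, log scale) of each miRNA with a read, against its rank in HFD+Ni (left) and HFD (right), with the set as coloured points. miR-146a-5p averages 1412 rpm in HFD+Ni and 2474 rpm in HFD, while miR-132-3p sits far down both curves and miR-212-3p has no point in HFD+Ni because it had no read there.

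miR-146a-5p, the feedback inhibitor, was lower on average in HFD+Ni than in HFD, with some overlap. mmu-miR-146a-5p was at 1455, 1165 and 1617 rpm in HFD+Ni replicates 1 to 3, against 1559, 2041, 2452 and 3843 rpm in HFD replicates 1 to 4. HFD replicate 4 was the highest library, and HFD+Ni replicate 3 lay just above HFD replicate 1. The means were 1412 ± 229 rpm in HFD+Ni (SD, n = 3) and 2474 ± 983 rpm in HFD (SD, n = 4), 1.75 times lower in HFD+Ni. The values rest on 78 to 205 reads in HFD+Ni and 126 to 2155 in HFD, and the rank of miR-146a-5p was 49 to 61 in HFD+Ni and 29 to 51 in HFD.

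On log2(rpm + 1), the scale of all fold changes here, the difference was -0.74 (SE 0.35, 95% interval -1.50 to 0.02). limma gave an unadjusted p of 0.0543 and an adjusted p of 0.830 over the 387 miRNAs tested. At the adjusted threshold of 0.05 limma called 0 of these 387 (0%). At an unadjusted p under 0.05 it called 11 (2.84%), none of them in the set. In read-count models of the same libraries the unadjusted p for miR-146a-5p was 0.0366 in edgeR and 0.0224 in DESeq2, with adjusted p of 0.616 and 0.719. Its log2 fold change was -0.93 in both models. They also moved the median of the 201 miRNAs at 50 rpm or more on average to -0.13, from 0.01 in limma. At unadjusted p under 0.05 edgeR called 7.24% and DESeq2 5.17% of the miRNAs. At adjusted p under 0.05 edgeR called 0% and DESeq2 0.258%, which was 1 miRNA outside the set. In the authors' deposited table miR-146a-5p has a log2 fold change of -0.81, a p-value of 0.121 and an FDR of 1.

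Markers of other cells were divided in direction. The log2 fold changes of both endothelial miRNAs (median -0.73), of the 5 leukocyte miRNAs tested (median -0.46) and of all 4 striated muscle miRNAs (median -1.94) were below 0. Those of all 6 epithelial (median 0.70) and all 5 tested testis miRNAs (median 2.45) were above 0. Of the 3 neural miRNAs tested, 2 were below 0 and 1 above, and the 1 erythroid miRNA tested was at -0.32. None of these passed the adjusted limma threshold. The HFD library with the highest miR-146a-5p, replicate 4, also had the highest endothelial sum and, at 4025 rpm, a high striated muscle sum, while its leukocyte sum of 4973 rpm lay inside the range of the other HFD libraries. The part of these cells in the result was not tested. Without that library the log2 fold change of miR-146a-5p was -0.50 with an unadjusted limma p of 0.148 and an adjusted p of 0.861, and without HFD+Ni replicate 2 it was -0.61 with an unadjusted limma p of 0.153 and an adjusted p of 0.770. Without HFD replicate 1, the lowest HFD library, it was -0.94 with an unadjusted limma p of 0.0239 and an adjusted p of 0.918.

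miR-146b-5p, the relative with the same seed, had overlapping levels in the groups. mmu-miR-146b-5p was at 559, 489 and 576 rpm in HFD+Ni replicates 1 to 3, against 458, 573, 468 and 961 rpm in HFD replicates 1 to 4. HFD replicate 4 again stood highest, and all HFD+Ni libraries lay within the range of the HFD libraries. The means were 541 ± 46.2 rpm in HFD+Ni (SD, n = 3) and 615 ± 236 rpm in HFD (SD, n = 4). The log2 fold change was -0.12 (SE 0.42, 95% interval -1.03 to 0.79; limma adjusted p = 0.967). Its sign turned without HFD replicate 4, to 0.12.

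**Figure D2:**
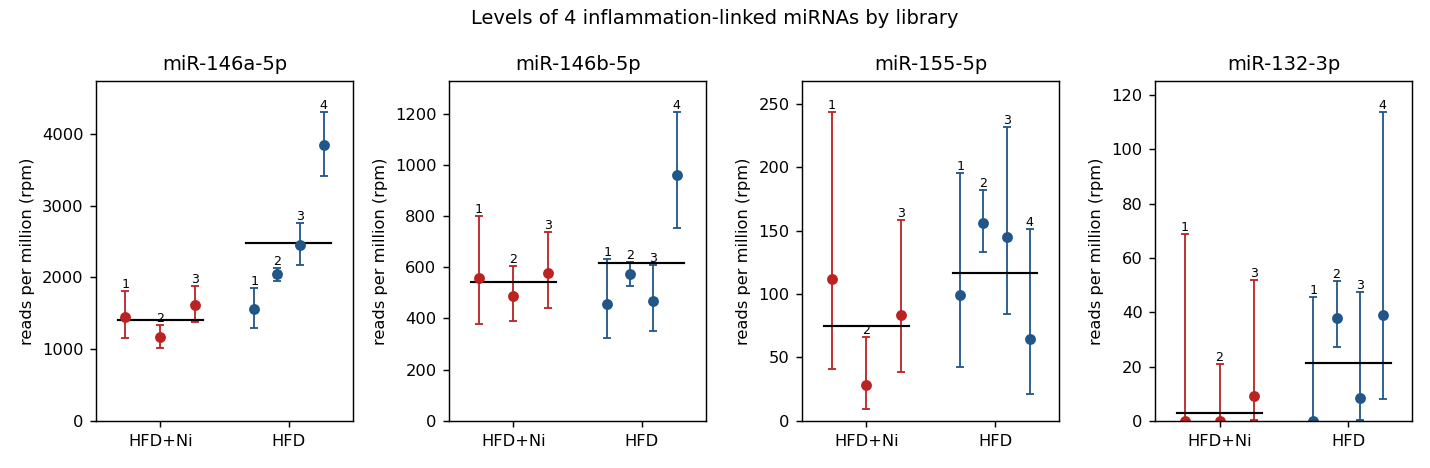
Level (rpm) of miR-146a-5p, miR-146b-5p, miR-155-5p and miR-132-3p in each HFD+Ni library (red) and HFD library (blue), with the replicate number above each point, exact 95% Poisson intervals of the reads as bars and the group mean as a black line. HFD replicate 4 is the highest point for the miR-146 pair, and the intervals of miR-155-5p and miR-132-3p are wide and overlap between most libraries.

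The balance within the miR-146 pair separated the groups, while the level of neither member did. miR-146a-5p had 2.60, 2.38 and 2.81 times the reads of miR-146b-5p in HFD+Ni replicates 1 to 3, against 3.41, 3.56, 5.24 and 4.00 times in HFD replicates 1 to 4. The highest of the HFD+Ni ratios was below the lowest of the HFD ratios. As a share of the reads of the pair, miR-146a-5p took 72.1% ± 1.64 in HFD+Ni (SD, n = 3) and 79.8% ± 2.98 in HFD (SD, n = 4). The exact 95% intervals of the shares still overlapped for neighbouring libraries, from 67.6% to 79.2% in HFD+Ni replicate 3 (236 reads of the pair) and from 70.1% to 83.5% in HFD replicate 1 (163 reads). Such intervals hold counting error alone, because reads copied by PCR from 1 molecule are not independent counts. They also take each read as counted for 1 member of the pair only, which is not known here. Some other near-identical miRNAs, such as miR-199a-5p and miR-199b-5p, had equal means, so reads that fit both may be counted for both.

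The mean log2 ratio of miR-146a-5p to miR-146b-5p was 1.37 ± 0.12 in HFD+Ni (SD, n = 3) and 2.00 ± 0.28 in HFD (SD, n = 4), a difference of -0.62. The exact two-sided permutation p was 0.0571, the smallest that doubling the smaller tail of 35 splits allows, and 0.171 after adjustment over the 3 ratios compared. Counted by absolute difference, a choice added after seeing the data, the exact permutation p was 0.0286 and 0.0857 after adjustment. The ratio does not depend on how libraries are scaled, but it does depend on how reads that fit both members were counted. Separation of this kind was common for miR-146a-5p: its ratio to 26 of 154 other miRNAs at 100 rpm or more on average (16.9%) also lay lower in HFD+Ni without overlap. With miR-146b-5p as the denominator, 3 of those 154 miRNAs (1.95%) did so. Among levels of single miRNAs, 9 of 387 (2.33%) lay lower in HFD+Ni without overlap, none of them in the set, and 20 (5.17%) did not overlap in either direction.

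**Figure D3:**
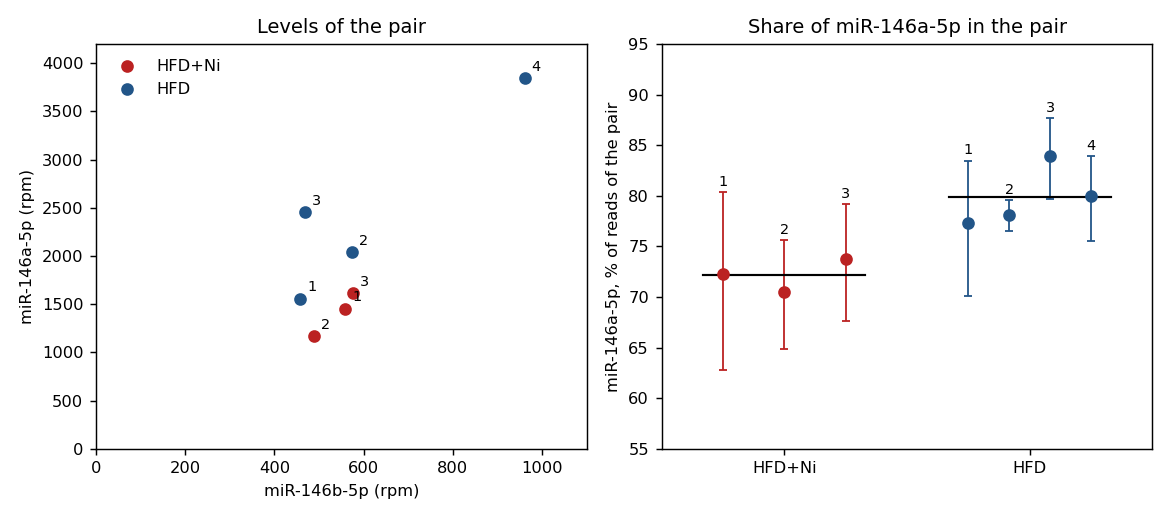
Left, level (rpm) of miR-146a-5p against miR-146b-5p in each library, and right, miR-146a-5p as a percentage of the reads of the pair with exact 95% binomial intervals and group means as black lines; HFD+Ni is red and HFD blue, with replicate numbers. The HFD+Ni shares, 70.4% to 73.7%, lie below the HFD shares, 77.3% to 84.0%, and the right axis starts above 0.

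miR-155-5p, an amplifier of macrophage and lymphocyte activation, was scarce, and the groups overlapped. mmu-miR-155-5p was at 112, 28.4 and 83.6 rpm in HFD+Ni replicates 1 to 3, against 99.0, 156, 145 and 64.9 rpm in HFD replicates 1 to 4. These levels stand for 6, 5 and 9 reads in HFD+Ni and 8, 165, 17 and 5 reads in HFD. HFD+Ni replicate 2 was the lowest library, whereas HFD replicate 4, the highest for the miR-146 pair, was the lowest in its group for miR-155-5p. The means were 74.6 ± 42.4 rpm in HFD+Ni (SD, n = 3) and 116 ± 42.2 rpm in HFD (SD, n = 4), with a log2 fold change of -0.76 (SE 0.81, 95% interval -2.53 to 1.01; limma adjusted p = 0.830). Without HFD+Ni replicate 2 it was -0.18.

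Pooled over libraries, miR-155-5p had 20 reads in HFD+Ni and 195 in HFD, a ratio of rates of 0.405 with an exact 95% counting interval of 0.242 to 0.643. Most of the HFD reads came from replicate 2, and without that library the ratio was 0.544 (0.293 to 0.991). Both intervals leave out the spread between libraries. The log2 ratio of miR-155-5p to miR-146a-5p averaged -4.42 ± 0.82 in HFD+Ni (SD, n = 3) and -4.40 ± 0.99 in HFD (SD, n = 4), a difference of -0.02 (exact two-sided permutation p = 0.971, also after adjustment over the 3 ratios). The sign of this small difference turned with several single libraries left out.

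miR-132-3p and miR-212-3p, products of 1 transcript, were at the edge of detection. mmu-miR-132-3p was at 0, 0 and 9.29 rpm in HFD+Ni replicates 1 to 3, against 0, 37.9, 8.51 and 39.0 rpm in HFD replicates 1 to 4. That is 1 read in all of HFD+Ni, and 40, 1 and 3 reads in HFD replicates 2, 3 and 4. A count of 0 allows up to 55.9 and 17.1 rpm in HFD+Ni replicates 1 and 2, and up to 37.1 rpm in HFD replicate 1. The limit of HFD+Ni replicate 1 lies above all 4 HFD levels, and that of HFD+Ni replicate 2 lies below the levels of HFD replicates 2 and 4. The level of HFD replicate 4 rests on 3 reads, however, and its Poisson interval of 8.03 to 114 rpm holds that limit. The log2 fold change was -2.34 (SE 1.83, 95% interval -6.34 to 1.66; limma adjusted p = 0.830) and -1.41 with a pseudocount of 5 rpm. With 1 library left out it ran from -3.50 (without HFD replicate 1) to -1.72 (without HFD replicate 4), and without both the deepest and the shallowest library it was -1.17. The pooled rate in HFD+Ni over that in HFD was 0.0897 (exact 95% counting interval 0.00222 to 0.527), and 0.204 (0.00415 to 2.06) without HFD replicate 2.

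mmu-miR-212-3p had no read in HFD+Ni and 1 read in HFD, in the deepest library at 0.95 rpm, and was not tested because its mean was under 5 rpm. Both groups were at or under the limit that a count of 0 allows, 8.90 rpm over the pooled HFD+Ni libraries and 2.25 rpm over the pooled HFD libraries, so no fold is given. In HFD replicate 2, where both products were read, miR-132-3p had 40 reads for 1 of miR-212-3p. The log2 ratio of miR-132-3p to miR-212-3p averaged 1.12 ± 1.94 in HFD+Ni (SD, n = 3) and 3.22 ± 2.31 in HFD (SD, n = 4), with an exact two-sided permutation p of 0.400 and 0.600 after adjustment. It rests on the pseudocount in every library but 1.

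The hairpins release a second, usually discarded arm, and these arms were nearly unread. The hairpins of miR-146a and miR-132 are shown because they contrast in this respect, with both mature arms in capitals.
Mir146: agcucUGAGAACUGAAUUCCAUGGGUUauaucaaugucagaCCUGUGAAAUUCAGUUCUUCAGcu
Mir132: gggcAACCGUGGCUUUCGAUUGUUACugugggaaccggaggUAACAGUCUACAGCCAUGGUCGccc
The 3p arm of Mir146 had 0 reads in HFD+Ni and 1 in HFD, beside 457 and 2865 reads of the 5p arm. The 3p arm of Mir146b had 0 reads in HFD+Ni and 2 in HFD, beside 178 and 771 of the 5p arm. For Mir132 the minor arm was closer to the major one. miR-132-5p had 3 reads in HFD+Ni, all in replicate 2, and 11 in HFD, all in replicate 2, beside 1 and 44 reads of miR-132-3p. In HFD+Ni replicate 2 the minor arm was therefore read and the major arm was not, at counts too small to tell the arms apart. miR-212-5p had 0 reads in HFD+Ni and 2 in HFD, and miR-155-3p was not among the 820 miRNAs with values.

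Side by side, all 4 tested members had a log2 fold change below 0, their median being -0.75, whereas 47.3% of all tested miRNAs lay below 0 and their median was 0.04. This direction was not particular to the set. The endothelial, leukocyte and striated muscle miRNAs tested were all below 0 as well, as were 5 of the 6 looked up for adipose tissue (median -0.41). All 6 epithelial and all 5 tested testis miRNAs were above 0. None of the 4 passed the test, and the members are not independent, since HFD replicate 4 was the highest library for 3 of them. A list of 20 other miRNAs known to be induced by inflammatory signalling, the opposite arms of the set included, was divided in direction. Of the 18 with values 13 were tested, of which 6 were lower and 7 higher in HFD+Ni, and the median log2 fold change was 0.24. In limma 0 of the 13 passed the adjusted threshold and 1 had an unadjusted p under 0.05. Of all 387 tested, 11 (2.84%) had such a p in limma. The 1 in this list was miR-21a-5p, an NF-kB and STAT3 responsive miRNA, with a log2 fold change of -0.59 (SE 0.26, adjusted p = 0.830). miR-99b-5p, from the cluster with let-7e and miR-125a that Toll-like receptor signals raise in macrophages, was at 2756 ± 100 rpm in HFD+Ni (SD, n = 3) and 2095 ± 336 rpm in HFD (SD, n = 4). Its groups did not overlap, as held for 20 of all 387 tested (5.17%), and its log2 fold change was 0.41 (SE 0.27, limma adjusted p = 0.830). Its cluster partners let-7e-5p and miR-125a-5p had log2 fold changes of -0.07 and -0.05. The other abundant members of that list, miR-9-5p, miR-34a-5p and miR-27a-3p, had log2 fold changes of 0.24, 0.55 and -0.24.

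A list of 14 miRNAs known to restrain NF-kB signalling or macrophage activation was likewise divided. Of the 13 tested, 7 were lower and 6 higher in HFD+Ni, and the median log2 fold change was -0.06. In limma 0 of the 13 passed the adjusted threshold and 1 had an unadjusted p under 0.05. Of all 387 tested, 11 (2.84%) had such a p in limma. The 1 in this list was the myeloid miRNA miR-223-3p, at 298, 392 and 465 rpm in HFD+Ni, against 681, 760, 749 and 935 rpm in HFD. Its groups did not overlap, as held for 20 of all 387 tested (5.17%), and its log2 fold change was -1.03 (SE 0.39, limma adjusted p = 0.830). The abundant miR-126a-3p of endothelium lay at -0.48 (SE 0.24; limma adjusted p = 0.830). The abundant miR-16-5p, miR-26a-5p, miR-125b-5p, let-7i-5p, miR-199a-5p and miR-10a-5p lay between -0.28 and 0.18, of which miR-10a-5p has a near-identical relative, miR-10b-5p, whose reads it may share.

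**Figure D4:**
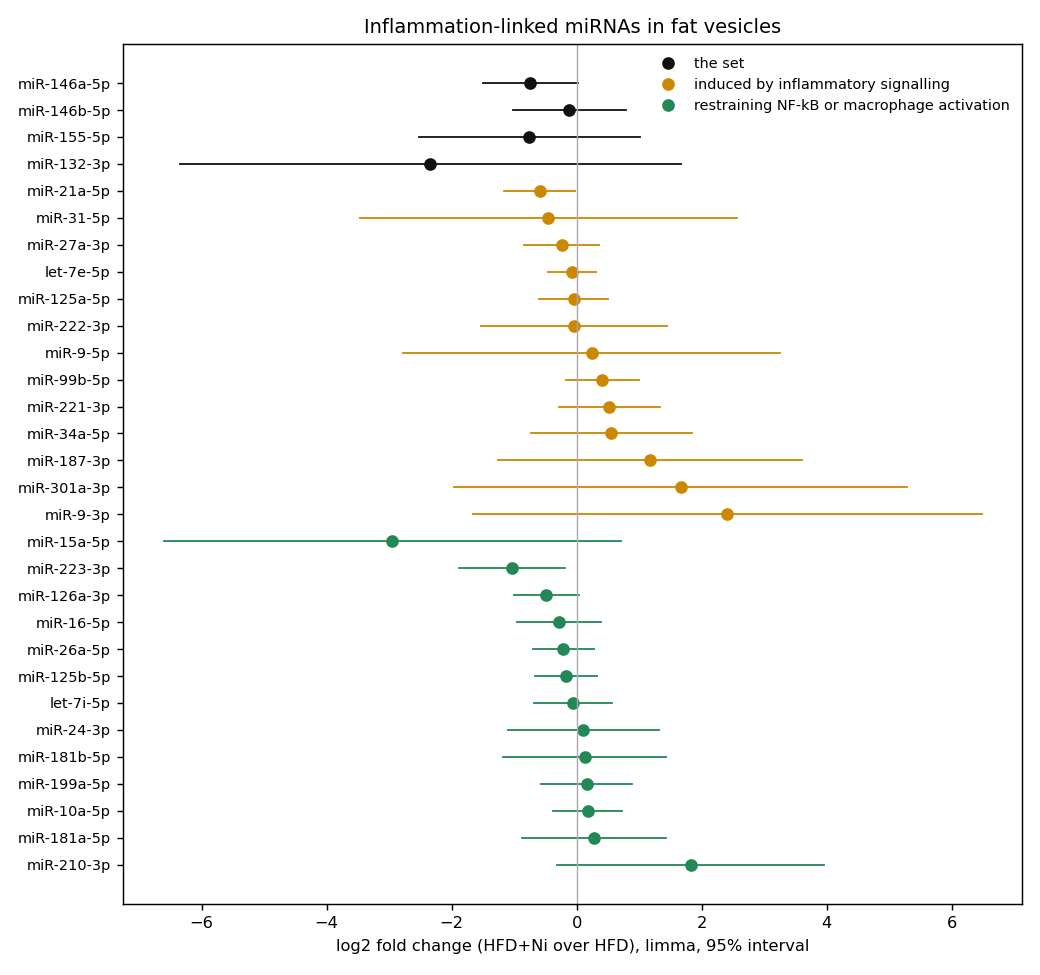
log2 fold change (HFD+Ni over HFD) with its limma 95% interval for the 4 tested members (black), 13 miRNAs induced by inflammatory signalling (orange) and 13 that restrain it (green). The members all lie left of 0 with intervals that cross it, and both lists spread to either side.

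The miRNAs whose levels ran most like those of miR-146a-5p over the 7 libraries were let-7f-5p, miR-361-5p and miR-223-3p, with Pearson r of 0.86, 0.81 and 0.80 on log2(rpm + 1) among the 154 other miRNAs at 100 rpm or more on average. Those most like miR-146b-5p were miR-206-3p, miR-181d-5p and miR-181b-5p, with r of 0.83, 0.80 and 0.77. These are descriptions over libraries that share the 2 groups, with no test. miR-206-3p, a skeletal muscle miRNA, was read in HFD replicates 2 and 4 alone, so its likeness rests on HFD replicate 4 at 753 rpm. miR-181b-5p and miR-181d-5p are near-identical in sequence and had equal levels in 3 libraries, so the same reads may stand behind both.

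**Figure D5:**
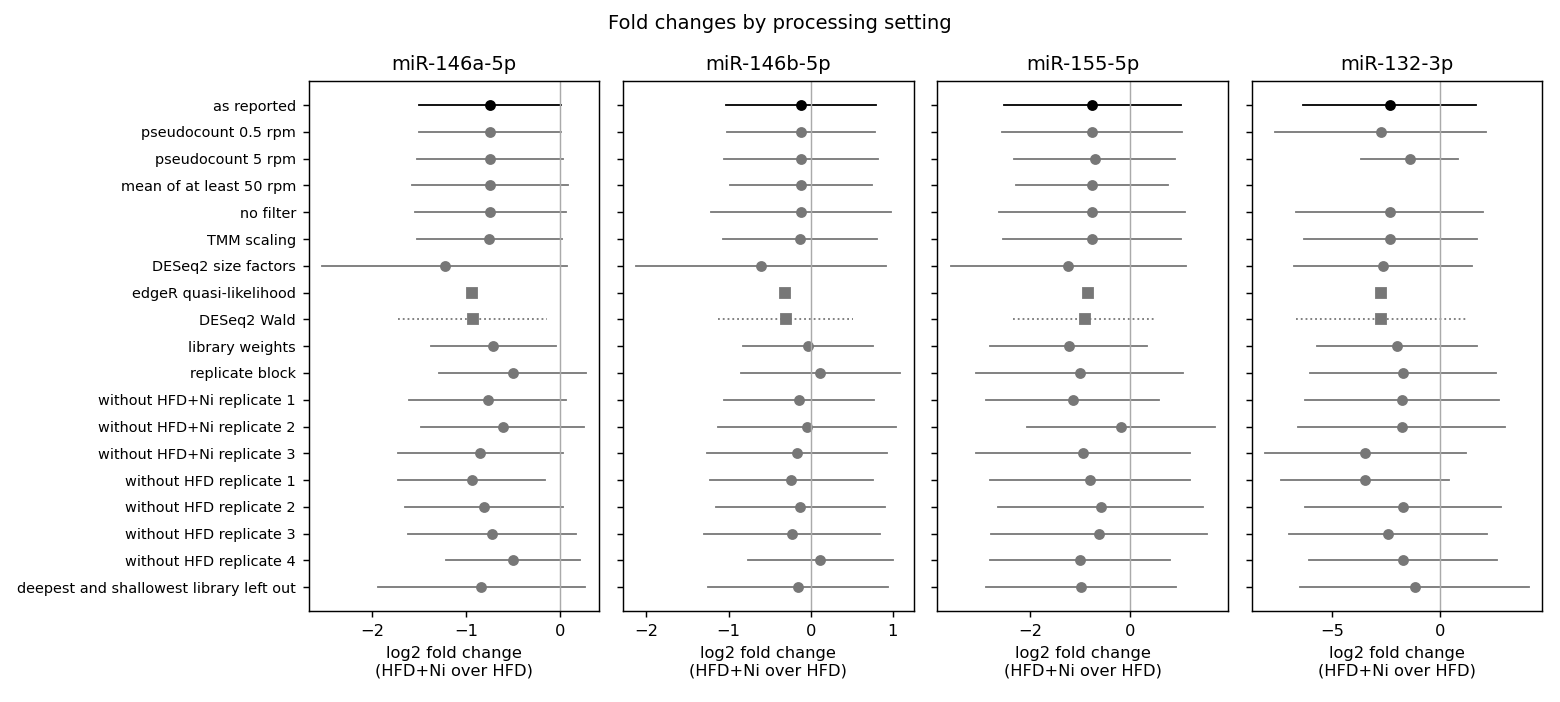
log2 fold change (HFD+Ni over HFD) of 4 members, as reported (black) and under each other setting (grey), with limma 95% intervals as solid lines, DESeq2 intervals dotted and edgeR estimates as squares without an interval. miR-146a-5p, miR-155-5p and miR-132-3p stay left of 0 in all settings shown, and miR-146b-5p crosses it under the replicate block and without HFD replicate 4.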

How the data were processed

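Small RNA reads from 7 vesicle libraries were counted per miRNA by the authors, whose deposited values are named TPM but are RPM: each deposited rpm column sums to 1000000. Dividing by the value of 1 read gave whole reads for 100% of values within a tolerance of 0.1 read. The submitters' processing notes name GRCm38 (mm10) and edgeR. An aligner, a counter and tool versions were not stated in the labels or headers. The deposited tables also hold the authors' p-values, FDR and log2 fold changes (positive where HFD+Ni is higher). In the authors' list of 15 miRNAs (lowest FDR 0.497), no column is named for HFD replicate 2 and 1 per-sample column matched no label, so that column was not used and no result rests on the list.

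limma 3.58.1, run in R 4.3.3, tested HFD+Ni against HFD on log2(rpm + 1) values with a trended prior. It took the 387 miRNAs whose mean reached 5 rpm; tests were two-sided and Benjamini-Hochberg adjusted at a threshold of 0.05. edgeR 4.0.16 (quasi-likelihood) and DESeq2 1.42.0 used the recovered reads. The 3 within-library ratios were compared by exact permutation, doubling the smaller tail. Poisson and binomial (Clopper-Pearson) intervals are exact at 95%, a count of 0 allows 3 reads, and both cover counting error only. The tests were also run on simulated reads, but with changes larger than those of the tested members, so that check does not cover changes of this size. Alternatives were other pseudocounts, filters, scalings, tools, library weights, a replicate block and left-out libraries.

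The members, lists and tests were chosen with earlier results of these data known. Named were all 5 members, their opposite arms, for each member that averaged 100 rpm or more the 3 miRNAs most alike in level, and list miRNAs whose mean reached 1000 rpm or with unadjusted p under 0.05. Loci are from RefSeq (GRCm38.p6) and their host genes from GENCODE on GRCm38.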

Additional observations from a re-analysis of the deposited data

Results flagged for a closer look

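In 7 of the 31 HFD groups of values examined, 1 of the 4 libraries lay far from the other 3. Chance would set about 1 in 20 apart among normally distributed values. That rate does not apply to the first 5 named here, whose other HFD values are 0 or, for miR-146b-3p, 0 and 0.95 rpm (1 read). Of the 7, 5 are miRNAs of 1 to 11 reads: HFD replicate 2, the deepest library, was the highest for miR-212-3p (0.95 rpm), miR-146a-3p (0.95 rpm), miR-132-5p (10.4 rpm) and miR-212-5p (1.89 rpm), and HFD replicate 4 for miR-146b-3p (13.0 rpm, 1 read). HFD replicate 1 was the highest for miR-125a-5p at 24178 rpm, and HFD replicate 4 for the endothelial miR-126a-3p at 30589 rpm.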

How the results depend on the processing

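miR-146a-5p, miR-155-5p and miR-132-3p kept a log2 fold change below 0 in each alternative run, and none of the 4 tested members passed the adjusted threshold in any. For miR-146a-5p the values ran from -0.94 to -0.50 with 1 library left out and from -1.23 to -0.50 in the other settings (adjusted p 0.616 to 0.947). miR-132-3p ran from -3.50 to -1.72 with 1 library left out and from -2.75 to -1.17 in the other settings. miR-146b-5p ran from -0.24 to 0.12 with 1 library left out, and turned to 0.12 with a replicate block, in which HFD replicate 4 has no partner and so does not count. No pairing of the samples by replicate number was seen. Deviations of same-numbered libraries correlated at -0.08, 0.07 and -0.19 over 201 miRNAs. No HFD+Ni library correlated best with the HFD library of its own number, and the replicate block called 0 miRNAs. With so few libraries these values cannot show that the samples were unpaired. The number of miRNAs called was 0 except with DESeq2, which called 1. The difference in the miR-155-5p to miR-146a-5p ratio turned to 0.027 with a pseudocount of 5 rpm and ran from -0.51 to 0.43 with 1 library left out; the cause was not tested. The difference in the miR-146a-5p to miR-146b-5p ratio ran from -0.70 to -0.49 with 1 library left out, and its exact permutation p was 0.0286 (adjusted 0.0857) when splits were counted by absolute difference, a choice added after seeing the data. DESeq2 size factors moved the median of all tested miRNAs to -0.41, from 0.04, and the members' changes there (-1.23 for miR-146a-5p) are to be read against it. With no filter miR-212-3p had a log2 fold change of -0.24 from 1 read, and a filter at 50 rpm removed miR-132-3p. Depth limits miR-155-5p, miR-132-3p and miR-212-3p, which had at most 17 reads outside HFD replicate 2.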
